A study of Mus musculus with 8 samples.

Results

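The transcripts of 10 genes that mark the vessel lining of the liver were followed in whole-liver RNA-seq. They comprise 6 genes used as markers of liver sinusoidal endothelium (Stab1, Stab2, Lyve1, Fcgr2b, Clec4g and Oit3) and 4 general endothelial genes (Pecam1, Kdr, Cdh5 and Vwf). They were taken by exact match of the gene symbol, and all 10 were found among the 22059 gene symbols of every sample. All 10 were also among the 17081 genes with enough reads to be tested. The samples were whole livers of wild-type FVB mice (FVB/NJ in the study's methods) at embryonic day 18 (E18), postnatal day 14 (P14), P28 and the adult stage at 3 months, with 2 samples at each of the 4 stages and no treatment or modified allele. RNA was poly(A)-selected and sequenced as 100-base read pairs, and no cell type was isolated. The duplicates are described as biological, but the labels name no animal, litter or batch, so the p-values measure the spread between these samples. Because whole liver was sequenced, fewer endothelial cells and less RNA per endothelial cell cannot be told apart.

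Liver sinusoids are capillaries with a fenestrated lining that lacks an organised basement membrane, so plasma reaches the hepatocytes directly. The lining cells take up waste macromolecules from blood through scavenger, lectin and Fc receptors, which are the products of most of the sinusoidal genes examined. Before birth the liver is a blood-forming organ, and haematopoietic cells make some of the same transcripts, such as Vwf in megakaryocytes and Fcgr2b in B cells and macrophages.

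The reads on genes numbered 68154675 in the shallowest and 106055723 in the deepest sample, and each of the 10 genes had between 80 and 14768 reads in every sample. Whether the mates of a pair were counted as 1 read or separately is not stated. Levels are given as RPKM, a read count divided by transcript length and by the mapped reads of the library, rescaled between samples by TMM, the factor of edgeR built on the premise that the bulk of genes is stable. The TMM factors were 1.6 and 1.54 at E18 and between 0.847 and 0.888 afterwards. Scaling by library size alone shifted the log2 change of the median gene by -0.867 from E18 to P14 and by -0.848 from E18 to adult, whereas it shifted it by -0.0121 from P14 to P28 and by 0.031 from P28 to adult. Comparisons that involve E18 therefore depend on the scaling. A gene was called changed at a false discovery rate below 0.1 over all tested genes, in edgeR's quasi-likelihood test with Benjamini-Hochberg adjustment. The smallest two-sided p that exact permutation of 2 against 2 samples allows is 0.33.

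The endothelial genes did not all follow 1 common course, although all 10 fell from P14 to P28. Clec4g and Fcgr2b were 16.4-fold and 14.2-fold higher at P14 than at E18 and were still 9.76-fold and 8.44-fold higher in adult liver. Lyve1 fell at every interval and was 32.4-fold lower in adult than at E18, and Vwf was 4.17-fold lower. The other 6 genes (Stab1, Stab2, Oit3, Pecam1, Kdr and Cdh5) fell by 1.5-fold to 2.51-fold between E18 and adult. These sizes are those with TMM. With library size alone the log2 change of these 6 genes from E18 to adult ran from -1.44 (Kdr) to -2.18 (Cdh5), and that of Vwf was -2.91. That scaling shifted the median gene by -0.848.

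**Figure D1:**
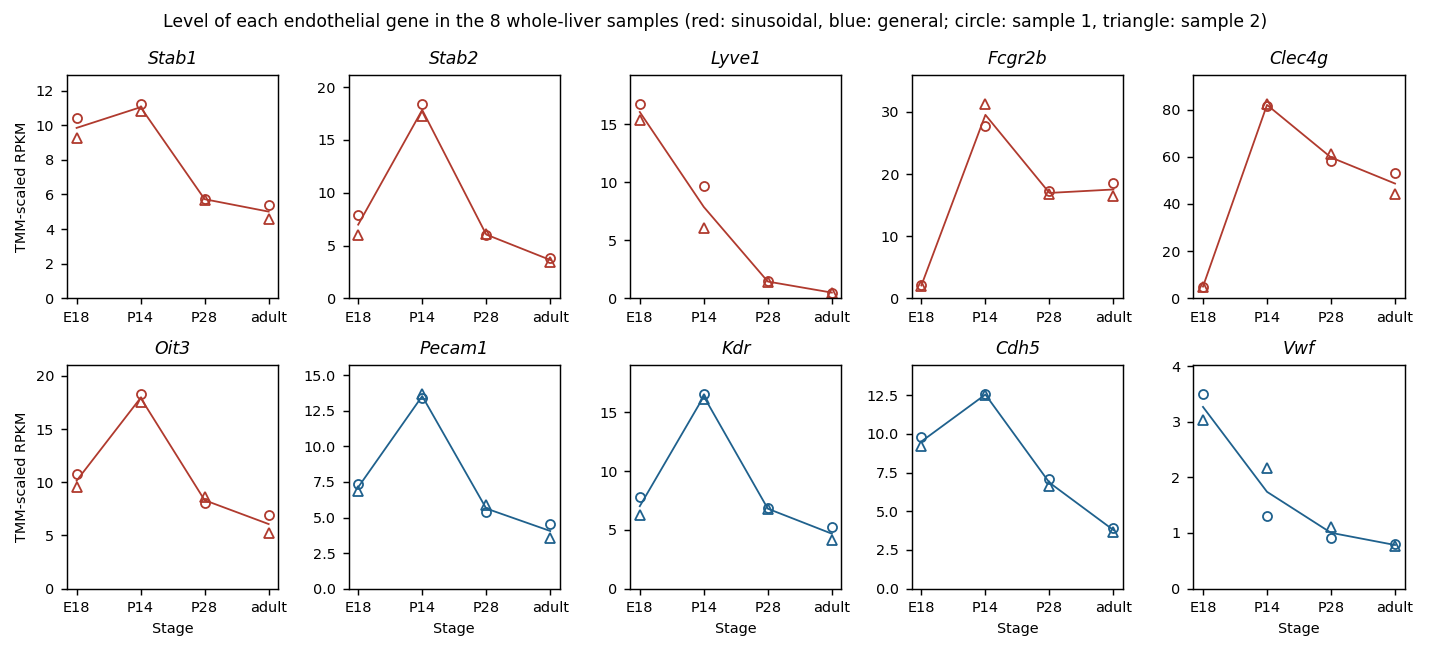
TMM-scaled RPKM (vertical axes, linear from 0) of each of the 10 genes at the 4 stages (horizontal axes), 1 point per sample. Clec4g and Fcgr2b are lowest at E18, Lyve1 and Vwf are highest at E18, and the other 6 genes are highest at P14 on this scale.

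Before the values, the promoter sequences of the pair that rose, Clec4g and Fcgr2b, are shown with that of Stab2, a sinusoidal gene that fell between E18 and adult. Each runs from 250 bases before to 50 bases after the start of the gene and is printed 5′ to 3′ on the strand of the gene. The sequences are those of RefSeq on GRCm38.p6, which is a later build than the mm9 of the deposited values. Of the 10 genes, 5 (Stab1, Stab2, Fcgr2b, Clec4g and Kdr) were matched. Capitals mark the ETS-type hexamer AGGAAG or its reverse complement CTTCCT. The GATA-type hexamer AGATAA and its reverse complement TTATCT were searched as well. Clec4g lies at chr8:3720602-3720901 (minus strand), Fcgr2b at chr1:170976022-170976321 (minus strand) and Stab2 at chr10:87007893-87008192 (minus strand).
Clec4g: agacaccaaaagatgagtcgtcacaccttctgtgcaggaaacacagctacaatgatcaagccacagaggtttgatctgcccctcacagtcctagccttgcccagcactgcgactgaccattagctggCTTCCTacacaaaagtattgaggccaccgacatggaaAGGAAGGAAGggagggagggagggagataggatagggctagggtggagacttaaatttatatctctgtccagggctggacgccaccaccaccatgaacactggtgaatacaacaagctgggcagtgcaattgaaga
Fcgr2b: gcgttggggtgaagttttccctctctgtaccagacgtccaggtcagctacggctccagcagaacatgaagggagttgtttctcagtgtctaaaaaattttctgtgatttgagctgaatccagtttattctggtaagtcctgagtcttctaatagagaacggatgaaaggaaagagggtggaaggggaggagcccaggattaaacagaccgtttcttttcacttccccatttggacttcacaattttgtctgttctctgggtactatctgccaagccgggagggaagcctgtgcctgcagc
Stab2: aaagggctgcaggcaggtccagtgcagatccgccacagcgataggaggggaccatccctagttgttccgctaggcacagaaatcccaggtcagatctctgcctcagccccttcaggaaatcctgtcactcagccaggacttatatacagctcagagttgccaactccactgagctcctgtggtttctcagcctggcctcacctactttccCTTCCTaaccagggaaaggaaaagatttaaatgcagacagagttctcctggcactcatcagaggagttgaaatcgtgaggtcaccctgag
The Clec4g sequence held 3 ETS-type matches, of which the last 2 overlap, Stab1 and Stab2 held 1 each, and Fcgr2b and Kdr held 0. No GATA-type match was found in these 5 sequences. Of all 32851 promoters of the same length, 35.4% held the ETS-type hexamer and 11.2% the GATA-type hexamer. Clec4g and Fcgr2b, which both rose from E18 to adult, thus differed in these letters. A match is a string of letters and not a shown binding site.

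Clec4g encodes LSECtin, a C-type lectin of sinusoidal endothelium. Its level was 4.99 and 4.98 scaled RPKM in E18 livers, 81.5 and 82.5 in P14 livers, 58.1 and 61.3 in P28 livers, and 53.0 and 44.2 in adult livers. The E18 samples lay far below all others, and the P14 samples lay above all others. Behind these levels were 919 and 810 reads at E18 and 9921 and 9764 at P14. The log2 change was 4.04 (SE 0.11, adjusted p = 1.1e-08) from E18 to P14 and 3.29 (SE 0.11, adjusted p = 1.1e-08) from E18 to adult. These changes were 3.17 and 2.43 with library size alone. Clec4g then fell from P14 to P28 by 0.46 on the log2 scale (SE 0.098, adjusted p = 0.0051).

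Fcgr2b encodes the inhibitory low-affinity receptor for IgG, which in sinusoidal endothelium clears small immune complexes. Its level was 2.08 and 2.06 scaled RPKM in E18 livers, 27.7 and 31.3 in P14 livers, 17.2 and 16.7 in P28 livers, and 18.6 and 16.4 in adult livers. The E18 samples were again the lowest and the P14 samples the highest, while the ranges at P28 and adult overlapped. The log2 change was 3.83 (SE 0.11, adjusted p = 1.3e-08) from E18 to P14 and 3.08 (SE 0.11, adjusted p = 1.7e-08) from E18 to adult. These changes were 2.96 and 2.23 with library size alone. From P14 to P28 it fell by 0.80 on the log2 scale (SE 0.10, adjusted p = 0.00031).

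Fcgr2b is also made by B cells and macrophages. The summed level of 5 B-cell genes was 2.51 to 4.31 scaled RPKM at E18, 5.84 to 6.64 at P14, 1.88 to 1.89 at P28 and 1.34 to 1.37 in adult. All 5 B-cell genes rose from E18 to P14, and from E18 to adult 1 rose and 2 fell, or 1 and 4 with library size alone. Ms4a1, the gene of CD20, had 0 reads in 1 E18 sample. The summed level of 10 Kupffer cell and macrophage genes was 202 to 287 at E18, 357 to 388 at P14, 343 to 411 at P28 and 196 to 197 in adult. Of these 10 genes, 5 rose and 1 fell from E18 to P14, and 2 rose and 7 fell from E18 to adult. The counts from E18 to P14 by library size alone were 2 that rose and 0 that fell for the B-cell genes, and 2 and 7 for the macrophage genes. Over all tested genes, 38.2% rose and 39.3% fell from E18 to P14, and 39.5% and 43.8% from E18 to adult. By library size alone these shares were 18.6% and 66.8%, and 22.1% and 64.9%. The part of these cells in the Fcgr2b level was not tested. Of the 100-base stretches of the Fcgr2b transcripts, 4.3% also occur in transcripts of other genes, among them Fcgr3, and it is not stated how such reads were counted. That share was 0 for Clec4g and at most 0.52% for the other 8 genes.

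Lyve1 encodes a hyaluronan receptor of sinusoidal and lymphatic endothelium. Its level was 16.8 and 15.4 scaled RPKM in E18 livers, 9.71 and 6.06 in P14 livers, 1.49 and 1.41 in P28 livers, and 0.490 and 0.500 in adult livers. No stages overlapped, although the P14 samples were far apart. The read counts fell from 6531 and 5270 at E18 to 80 and 93 in adult. On the log2 scale Lyve1 fell by 1.03 from E18 to P14 (SE 0.19, adjusted p = 0.00084), by 2.44 from P14 to P28 (SE 0.20, adjusted p = 3.1e-05) and by 1.55 from P28 to adult (SE 0.23, adjusted p = 0.0032). From E18 to adult it fell by 5.02 (SE 0.23, adjusted p = 7.3e-08), and by 5.87 with library size alone. It was the gene with the highest level of the 10 at E18 and the lowest in adult.

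Lymphatic vessels share Lyve1, and the lymphatic list did not move as 1 group. The summed level of its 4 genes was 6.32 to 8.33 scaled RPKM at E18, 7.88 to 9.69 at P14, 10.3 to 10.5 at P28 and 11.6 to 12.3 in adult. Most of this sum was Prox1, at a mean of 4.54 at E18 and 11.5 in adult. Of the 3 that could be tested, Prox1 rose from E18 to adult by 1.34 on the log2 scale (SE 0.17, adjusted p = 8.0e-05), and Mmrn1 fell by 4.19 (SE 0.38, adjusted p = 6.1e-06). Prox1 is a transcription factor of lymphatic endothelium that hepatocytes make too, and Mmrn1 encodes multimerin, which megakaryocytes also make. The part of lymphatic cells in the Lyve1 level was not tested.

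Stab1 and Stab2 encode the stabilins, a pair of large scavenger receptors, of which stabilin-2 removes hyaluronan from blood. Stab2 was at 7.93 and 6.02 scaled RPKM in E18 livers, 18.4 and 17.2 in P14 livers, 6.0 and 6.08 in P28 livers, and 3.85 and 3.41 in adult livers. Its P14 samples were the highest and its adult samples the lowest, and the P28 samples lay at the lower end of the E18 range. It rose from E18 to P14 by 1.35 on the log2 scale (SE 0.13, adjusted p = 1.4e-05), or by 0.48 with library size alone. It then fell by 1.56 from P14 to P28 and by 0.73 from P28 to adult.

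Stab1 was at 10.4 and 9.29 scaled RPKM in E18 livers, 11.2 and 10.8 in P14 livers, 5.76 and 5.69 in P28 livers, and 5.42 and 4.60 in adult livers. The E18 and P14 samples lay close together above the P28 and adult samples. The log2 change from E18 to P14 was 0.17 (SE 0.10, adjusted p = 0.17), which was not called, and it was -0.70 and called with library size alone. Without E18 replicate 1 it was 0.25 and called. Stab1 fell by 0.95 on the log2 scale from P14 to P28 (SE 0.10, adjusted p = 0.00013). Oit3, which encodes a secreted protein with a zona pellucida domain, was at 10.7 and 9.53 scaled RPKM in E18 livers, 18.3 and 17.6 in P14 livers, 8.0 and 8.61 in P28 livers, and 6.93 and 5.20 in adult livers. Its rise from E18 to P14 was 0.82 on the log2 scale (SE 0.13, adjusted p = 0.00045), but its difference was -0.047 and not called with library size alone.

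Among the general endothelial genes, Cdh5 encodes VE-cadherin of endothelial junctions and Kdr encodes the main receptor for VEGF-A. Cdh5 was at 9.80 and 9.23 scaled RPKM in E18 livers, 12.6 and 12.5 in P14 livers, 7.07 and 6.63 in P28 livers, and 3.89 and 3.67 in adult livers. No stages overlapped, and the adult samples were the lowest. From E18 to P14 it rose by 0.40 on the log2 scale with TMM (SE 0.086, adjusted p = 0.0024) and fell by 0.47 with library size alone. Kdr was at 7.76 and 6.26 in E18 livers, 16.6 and 16.1 in P14 livers, 6.84 and 6.76 in P28 livers, and 5.21 and 4.12 in adult livers. The P28 samples of Kdr lay within the E18 range. It rose from E18 to P14 by 1.22 on the log2 scale (SE 0.13, adjusted p = 3.3e-05), or by 0.35 with library size alone.

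Pecam1 encodes an adhesion molecule of endothelial junctions that platelets and leukocytes carry too. It was at 7.37 and 6.90 scaled RPKM in E18 livers, 13.4 and 13.7 in P14 livers, 5.42 and 5.85 in P28 livers, and 4.54 and 3.56 in adult livers. The P14 samples stood above all others. From E18 to P14 it rose by 0.93 on the log2 scale (SE 0.12, adjusted p = 0.0001), whereas its difference was 0.057 and not called with library size alone.

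Vwf encodes von Willebrand factor, which tethers platelets and is low in sinusoids compared with larger vessels. It was at 3.50 and 3.03 scaled RPKM in E18 livers, 1.31 and 2.17 in P14 livers, 0.900 and 1.10 in P28 livers, and 0.798 and 0.767 in adult livers. The E18 samples were the highest, the P14 samples differed by more than those of any other stage, and the P28 and adult ranges did not overlap. Vwf fell from E18 to P14 by 0.91 on the log2 scale (SE 0.21, adjusted p = 0.0036) and from E18 to adult by 2.06 (SE 0.22, adjusted p = 2.1e-05). These log2 changes were -1.78 and -2.91 with library size alone. From P14 to P28 it fell by 0.80 (SE 0.21, adjusted p = 0.015), but without P14 replicate 2 the log2 change was -0.40 and not called.

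Megakaryocytes and platelets share Vwf and Pecam1. The summed level of 8 megakaryocyte and platelet genes was 180 to 247 scaled RPKM at E18, 17.1 to 18.4 at P14, 4.89 to 4.94 at P28 and 3.11 to 3.61 in adult. All 8 fell from E18 to P14 and again from P14 to P28, where 39.3% and 28.6% of all tested genes fell. Their median log2 change from E18 to adult was -6.46, against -0.106 over all tested genes. The part of these cells in the Vwf and Pecam1 levels was not tested.

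By interval, 7 of the 10 genes rose and 2 fell from E18 to P14, where 38.2% of all tested genes rose and 39.3% fell. With library size alone 4 rose (Clec4g, Fcgr2b, Stab2 and Kdr) and 4 fell (Lyve1, Vwf, Stab1 and Cdh5), where 18.6% of all genes rose and 66.8% fell. From P14 to P28 all 10 fell, against 28.6% of all genes that fell and 25.2% that rose. The median log2 change of the 10 was -1.03 in that interval, and that of all tested genes was -0.0452. From P28 to adult 7 fell and 0 rose, against 13.2% and 7.94% of all genes. The 3 that were not called were Vwf at -0.36 (adjusted p = 0.33), Stab1 at -0.19 (adjusted p = 0.25) and Fcgr2b at 0.046 (adjusted p = 0.81) on the log2 scale. The number that fell from P28 to adult was 4 without P28 replicate 1, 4 without P28 replicate 2 and 3 without adult replicate 2. Lyve1, Stab2 and Cdh5 were called in each of these fits, and the calls of Clec4g, Oit3, Pecam1 and Kdr were each lost in at least 2 of them. From E18 to adult 2 rose and 8 fell, where 39.5% of all genes rose and 43.8% fell, and with library size alone 2 rose and 8 fell, where 22.1% of all genes rose and 64.9% fell.

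Past a 3-fold change as well with TMM, Clec4g and Fcgr2b rose from E18 to P14, where 13.8% of all genes did so. From P14 to P28 Lyve1 was the 1 gene of the 10 past 3-fold, against 5.98% of all genes that fell so far. From E18 to adult Clec4g and Fcgr2b rose past 3-fold and Lyve1 and Vwf fell past it, where 16.8% and 23.8% of all genes did. With library size alone, Lyve1 (-1.895) and Vwf (-1.781 on the log2 scale) also fell past 3-fold from E18 to P14. From E18 to adult with that scaling, Cdh5 (-2.181), Stab1 (-1.828), Stab2 (-1.796), Pecam1 (-1.67) and Oit3 (-1.597) fell past it as well. Called falls of any size covered 66.8% and 64.9% of all genes in these comparisons. The share past 3-fold was not computed with library size alone.

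**Figure D2:**
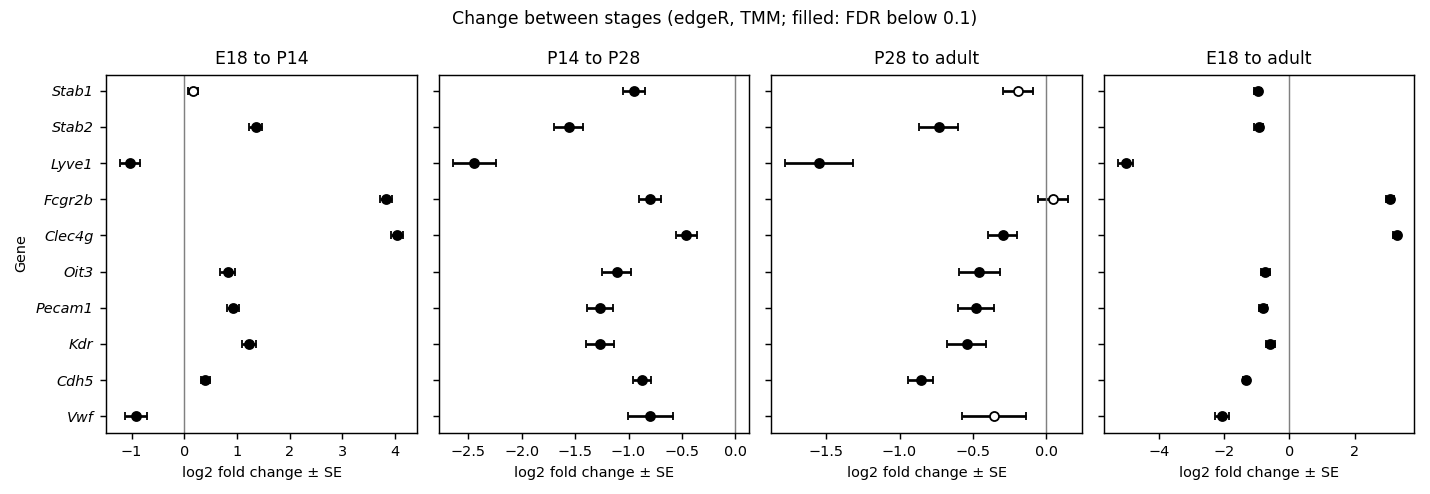
Log2 fold change of the 10 genes (vertical axis) in each comparison (panels), with bars of 1 SE, and filled points at a false discovery rate below 0.1. All 10 points lie below 0 from P14 to P28, and from E18 to adult Clec4g at 3.29 and Fcgr2b at 3.08 stand opposite to Lyve1 at -5.02.

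**Figure D3:**
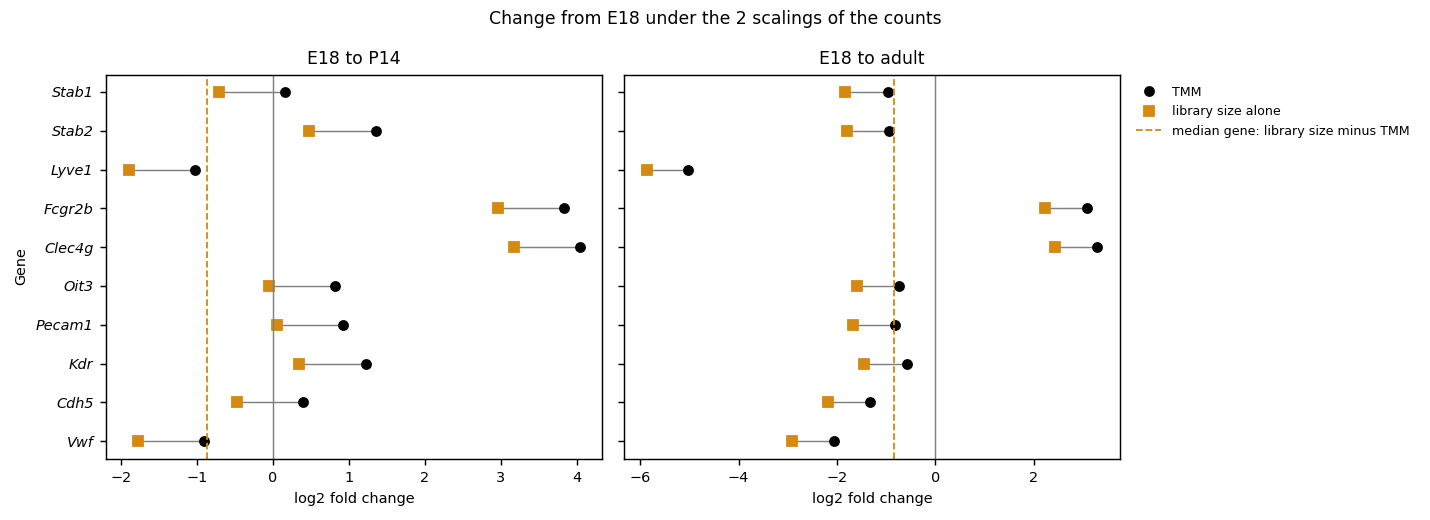
Log2 fold change of the 10 genes from E18 to P14 and from E18 to adult with TMM (circles) and with library size alone (squares), and the shift of the median gene (dashed). From E18 to P14 Stab1, Oit3 and Cdh5 change sign between the scalings, and from E18 to adult no gene does.

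A ratio within 1 sample needs no scaling between samples, so each level was divided by that of Cdh5 in the same sample. Clec4g stood at 0.525 ± 0.022 times the Cdh5 level in E18 livers (SD, n = 2), 6.53 ± 0.082 in P14 livers, 8.73 ± 0.72 in P28 livers and 12.8 ± 1.1 in adult livers. Fcgr2b went from 0.218 ± 0.0078 in E18 livers to 2.35 ± 0.21 in P14, 2.48 ± 0.064 in P28 and 4.63 ± 0.21 in adult livers. Lyve1 went the other way, from 1.69 ± 0.034 at E18 to 0.628 ± 0.20, 0.212 ± 0.0021 and 0.131 ± 0.0071. For all 9 genes other than Cdh5 the E18 range of this ratio lay apart from that of every later stage, as it did for 73.6% of all tested genes. Between P14 and adult the ratios of Clec4g and Fcgr2b grew while their own levels fell. The mean scaled RPKM went from 81.98 to 48.65 for Clec4g, from 29.52 to 17.51 for Fcgr2b and from 12.55 to 3.783 for Cdh5.

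Vwf was at 0.343 ± 0.020 times Cdh5 in E18 livers, 0.139 ± 0.049 in P14 livers, 0.147 ± 0.028 in P28 livers and 0.207 ± 0.0029 in adult livers. Stab2 was at 0.731 ± 0.11 in E18 livers, 1.42 ± 0.060 in P14 livers, 0.883 ± 0.048 in P28 livers and 0.960 ± 0.043 in adult livers. Kdr was at 0.735 ± 0.081 in E18 livers, 1.30 ± 0.018 in P14 livers, 0.993 ± 0.037 in P28 livers and 1.23 ± 0.15 in adult livers. Both were thus higher against Cdh5 at P14 than at E18 in each sample. The stage means of Stab1, Oit3 and Pecam1 ranged between 0.750 and 1.60 times Cdh5.

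**Figure D4:**
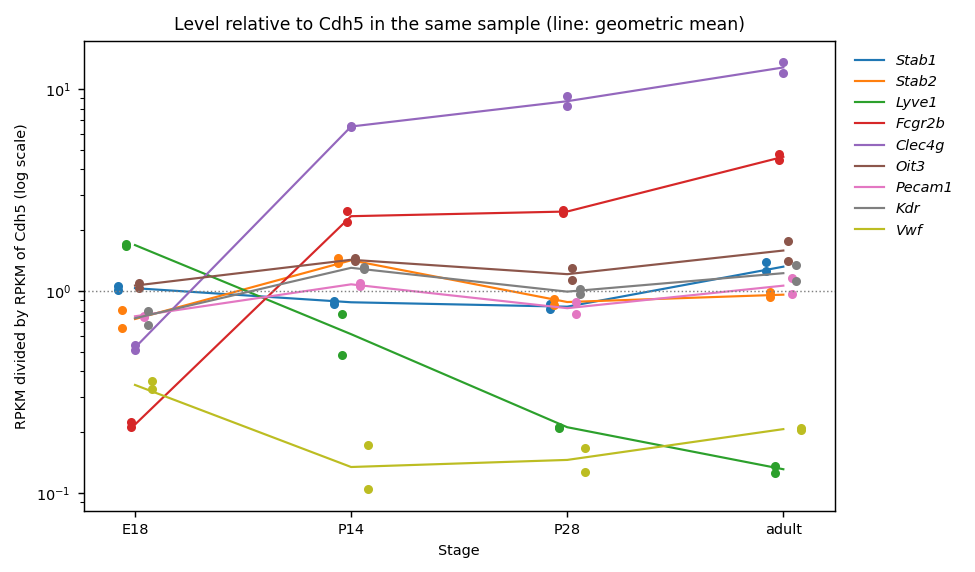
RPKM of each gene divided by that of Cdh5 in the same sample (vertical axis, log scale) at the 4 stages, with points for samples and lines for geometric means. The ratio of Clec4g climbs from 0.525 to 12.8 and that of Lyve1 descends from 1.69 to 0.131. The stage means of Stab1, Oit3 and Pecam1 lie between 0.750 and 1.60.

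To set the 10 genes against endothelial transcripts in general, the counts were scaled by the summed reads of 20 other pan-endothelial genes, such as Tie1, Tek and Egfl7. On that scale the log2 change from E18 to adult was 3.05 for Clec4g (SE 0.14, adjusted p = 1.5e-10), 2.84 for Fcgr2b (SE 0.14, adjusted p = 4.0e-10), -5.25 for Lyve1 (SE 0.24, adjusted p = 2.1e-10) and -2.29 for Vwf (SE 0.20, adjusted p = 1.2e-07). The other 6 fell as well, between 0.82 for Kdr and 1.57 for Cdh5. That made 2 that rose and 8 that fell, where 33.2% of all genes rose and 48.8% fell. Of the 20 scaling genes themselves, 3 rose and 14 fell on this scale, with a median log2 change of -0.524. A fall on it was thus shared by most of the scaling genes. Past 3-fold, Clec4g and Fcgr2b rose and Lyve1 and Vwf fell, as did 14.3% and 26.6% of all genes. Scaled by Cdh5 alone, Stab1 (0.35), Stab2 (0.39), Oit3 (0.59), Pecam1 (0.51) and Kdr (0.74) rose instead, while Clec4g and Fcgr2b still rose and Lyve1 and Vwf still fell. That scaling raised the log2 change of the median gene by 1.56, and 66.5% of all genes rose and 20.4% fell on it.

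The share of each gene in the summed level of the 10 moved accordingly. Clec4g made up 6.13% and 6.86% of that sum in the E18 samples, 38.7% and 39.3% in those of P14, 49.8% and 51.0% in those of P28, and 51.6% and 51.1% in those of adult. Lyve1 went from 20.6% and 21.1% at E18 to 0.477% and 0.577% in adult, and Fcgr2b from 2.56% and 2.84% to 18.1% and 19.0%.

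In order of level per transcript length, Lyve1 led at E18, followed by Oit3, Stab1 and Cdh5, of which neighbours overlapped in range. Pecam1, Kdr and Stab2 came next with overlapping ranges, and then Clec4g, Vwf and Fcgr2b, each apart from its neighbour. At P14, P28 and adult Clec4g led, then Fcgr2b, followed by Oit3, whose range overlapped with that of Stab2 at P14. In adult the ranges of Oit3, Stab1, Kdr, Pecam1, Cdh5 and Stab2 overlapped from each to the next, and Vwf and Lyve1 lay below them.

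The other genes of the endothelium were examined in lists. Of 20 other pan-endothelial genes, 20 rose from E18 to P14 and 20 fell from P14 to P28, with median log2 changes of 1.06 and -0.898. In these intervals 38.2% of all genes rose and 28.6% fell, respectively. On library size alone 10 rose and 3 fell from E18 to P14, where 18.6% of all genes rose and 66.8% fell. Again 20 fell from P14 to P28, where 29.1% of all genes did. From E18 to adult 4 rose and 10 fell, where 39.5% of all genes rose and 43.8% fell. With library size alone 1 rose and 18 fell, where 22.1% of all genes rose and 64.9% fell. Ptprb, a receptor phosphatase of endothelium, rose by 2.19 on the log2 scale from E18 to adult (SE 0.14), and Gpr116, an adhesion receptor, rose by 0.78 with TMM but was at -0.077 and not called with library size alone. Icam2, an adhesion molecule, fell by 1.61 (SE 0.20), and Egfl7, a secreted vessel protein, fell by 0.78 (SE 0.10).

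Of 16 other sinusoidal genes, 15 rose and 0 fell from E18 to P14, 12 fell from P14 to P28, and 7 rose and 3 fell from E18 to adult. By library size alone 8 rose and 2 fell from E18 to P14, and 4 rose and 10 fell from E18 to adult. Over all tested genes with TMM, 38.2% rose and 39.3% fell from E18 to P14, and 28.6% fell from P14 to P28. From E18 to adult 39.5% of all genes rose and 43.8% fell. By library size alone these shares were 18.6% and 66.8% from E18 to P14, and 22.1% and 64.9% from E18 to adult. Cd209b, a C-type lectin, rose by 3.35 on the log2 scale from E18 to adult (SE 0.39) at levels of 0.0265 and 0.0263 scaled RPKM at E18 and 0.340 and 0.215 in adult. Wnt9b, a Wnt ligand made by liver endothelium, rose by 3.02 (SE 0.26), from 0.0504 and 0.0774 to 0.516 and 0.518. Tspan7, a tetraspanin, fell by 1.32 (SE 0.096), and the receptor gene Gpr182 fell by 0.92 (SE 0.15).

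Of 8 genes of continuous capillaries and large vessels, 3 rose and 4 fell from E18 to P14, where 38.2% and 39.3% of all genes did. From E18 to adult 2 rose and 5 fell, where 39.5% and 43.8% of all genes did. With library size alone 1 rose and 5 fell from E18 to adult, where 22.1% and 64.9% of all genes did. Their median log2 change from E18 to adult was -2.29, against -0.106 over all tested genes. Selp (P-selectin, which platelets also carry) rose by 3.85 (SE 0.12), from 0.357 and 0.369 scaled RPKM at E18 to 4.94 and 5.55 in adult. Plvap, a protein of endothelial diaphragms, rose by 0.94 with TMM but was at 0.094 and not called with library size alone. Apln, the apelin peptide, fell from 185 and 123 reads at E18 to 2 and 3 in adult (adjusted p = 5.7e-06). Darc, a chemokine receptor that red cells also carry, fell by 4.73 (SE 0.21). Erythroid markers fell with Darc, as the summed level of 7 of them was 5742 to 7490 scaled RPKM at E18 and 48.7 to 52.6 in adult. The part of these cells in the Darc level was not tested.

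Of 10 VEGF and angiopoietin ligands and receptors other than Kdr, 6 rose and 2 fell from E18 to P14, and 3 rose and 6 fell from E18 to adult. Under library size alone these counts were 3 and 4, and 2 and 8. Among all tested genes with TMM, 38.2% rose and 39.3% fell from E18 to P14, and 39.5% and 43.8% from E18 to adult. Under library size alone these shares were 18.6% and 66.8%, and 22.1% and 64.9%. Vegfa, the ligand of the Kdr receptor, rose by 2.24 on the log2 scale from E18 to adult (SE 0.16), from 13.8 and 9.75 scaled RPKM to 54.8 and 56.2, while Kdr fell by 0.59 (SE 0.13, adjusted p = 0.0029). Nrp1, a co-receptor, rose by 2.60 (SE 0.25), with adult samples far apart at 18.9 and 34.6. Among the ligands, Pgf fell from 90 and 90 reads to 1 and 3 (adjusted p = 3.3e-05), and Angpt1, which activates Tek, fell by 3.30 (SE 0.19).

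**Figure D5:**
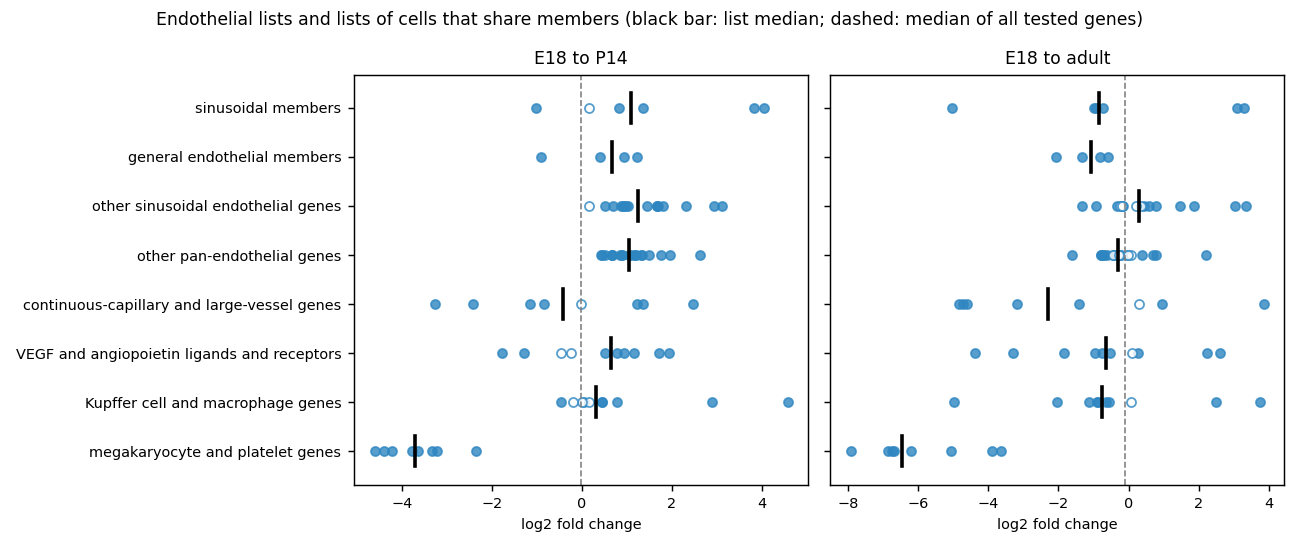
Log2 fold change of each tested gene (points) of the endothelial lists and of the lists of other cells that share transcripts with them (rows), by comparison (panels), with black bars for list medians and a dashed line for the median of all tested genes. Pan-endothelial genes lie above 0 from E18 to P14, and the platelet genes have a median of -6.46 from E18 to adult.

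The markers of other cells also changed. Of all tested genes, 39.5% rose and 43.8% fell from E18 to adult, or 22.1% and 64.9% with library size alone. Of 6 hepatocyte genes, 6 rose from E18 to adult, or 5 with library size alone, and Tat, an enzyme of tyrosine breakdown, rose by 12.41 on the log2 scale. Of 7 stellate cell genes, 2 rose and 3 fell, or 2 and 5 with library size alone, among them Lrat, which makes retinyl esters, at 2.07 and Col1a1, a fibrillar collagen, at -3.90. Among other blood and macrophage genes, Vsig4 rose by 3.74, Marco fell by 4.98 and Cd79b fell by 1.84. Ms4a1 rose from 0 and 1 reads at E18 to 14 and 20 in adult. Exocrine pancreas genes summed to 174 to 394 scaled RPKM at E18. Of the 5 that could be tested, 4 fell to adult, where Pnliprp1 had 0 reads in both samples, and Cela1 rose by 3.23. The part of pancreas in the endothelial levels was not tested.

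The genes whose course was nearest to 3 of the genes were found by Euclidean distance between centred log2 CPM over the 8 samples, which share libraries and depth. Nearest to Stab2 were Trim24 (0.499), Cyp4f16 (0.51), Pppde1 (0.534), Plekhg1 (0.538) and Sectm1b (0.548). Kdr, at 0.523, was nearer to Stab2 than all but 2 of these, while Lyve1 was at 4.34 and Clec4g at 4.64. Nearest to Cdh5 were 4930452B06Rik (0.225), Snord123 (0.255), Tfpi (0.26), Tspan7 (0.272) and Rnf122 (0.278). Nearest to Vwf were Numbl (0.356), Mir678 (0.37), Hspa12b (0.385), Ehd2 (0.416) and Serp2 (0.457). From Vwf, Stab2 was at 2.44, Lyve1 at 3.6 and Clec4g at 6.4.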

How the data were processed

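Whole-liver poly(A) RNA from 8 samples of FVB mice (FVB/NJ in the methods) was sequenced by the authors as 100-base pairs. The authors deposited, for each gene symbol and sample, a read count without normalization and an RPKM. The submitters' processing notes name build mm9, and the aligner is not given in the sources used here. The labels name Trizol for RNA isolation, whereas the methods name RNeasy. Groups came from the sample titles.

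The counts were kept by filterByExpr, scaled by TMM and fitted in edgeR 4.0.16 (R 4.3.3) with 1 coefficient per stage, glmQLFit and glmQLFTest, and Benjamini-Hochberg adjustment. The SE was the log2 change divided by the square root of F. The deposited RPKM were divided by 1 factor per sample for levels. Alternatives used DESeq2 1.42.0, limma 3.58.1 on log2(RPKM + 0.1), library size, the replicate block and each sample left out. The scripts were tested on simulated data. Figures used Python 3.11.15 and matplotlib 3.10.9.

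The 10 genes and all lists were chosen with earlier results of these data known. Beside the 10, the text names the 2 largest rises and 2 largest falls from E18 to adult past a false discovery rate of 0.1 in each endothelial list, the largest rise and fall in each list of other cells, and the 5 genes nearest to Stab2, Cdh5 and Vwf. Tie1, Tek and genes named at 0 reads fall outside this rule and were named after their values were seen. Some genes that the rule selects are not reported here. Promoter letters came from RefSeq, and shared 100-base stretches from GENCODE transcripts on GRCm38. Replicate numbers were not used to pair the samples, except in the replicate block. Each SE comes from the fit, which shares the spread across genes, and values after ± are the SD of the duplicates.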

Additional observations from a re-analysis of the deposited data

How the results depend on the processing

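With 2 samples per stage, the calls rest on a spread shared across genes. Of the single-gene values recomputed under each alternative, 739 kept direction and call, 17 kept direction and lost the call, 1 gained it and 12 changed sign. The scaling changed calls and signs from E18 to P14, and none of the 10 genes changed sign from E18 to adult with library size alone. With library size alone, 4 genes rose and 4 fell from E18 to P14, where 18.6% of all genes rose and 66.8% fell. Stab1 (-0.70), Oit3 (-0.047) and Cdh5 (-0.47) changed sign, and the median gene shifted by -0.867. With limma on log2(RPKM + 0.1), 4 rose and 4 fell in that interval, where 18.9% of all genes rose and 66.8% fell. Stab1 was then at -0.68, Oit3 at -0.032 and Cdh5 at -0.45, and the median gene shifted by -0.841. In the fit relative to pan-endothelial genes, scaling by Cdh5 alone, which raised the median gene by 1.56 on the log2 scale and made 66.5% of all genes rise and 20.4% fall, made 7 rise and 2 fall, with Stab1 at 0.35, Stab2 at 0.39, Oit3 at 0.59, Pecam1 at 0.51 and Kdr at 0.74. Scaling by the geometric mean of that list, chosen after the data were seen, gave 2 that rose and 8 that fell, where the median gene was raised by 0.406 and 41.8% of all genes rose and 38.4% fell.

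Past 3-fold as well as the false discovery rate, 2 rose and 0 fell from E18 to P14, 1 fell from P14 to P28, 0 fell from P28 to adult, and 2 rose and 2 fell from E18 to adult in both fits. At a false discovery rate of 0.05, 5 fell from P28 to adult, and with only the 2 stages compared 6 did. Leaving out each sample gave 7 to 8 that rose and 2 that fell from E18 to P14, 9 to 10 that fell from P14 to P28, 3 to 7 that fell from P28 to adult, and 2 that rose and 8 that fell from E18 to adult in both fits. The P28 to adult change of Fcgr2b was -0.046 without adult replicate 1 and 0.13 without adult replicate 2. Clec4g was not called from P28 to adult without either P14 sample, either P28 sample or adult replicate 2.

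Same-numbered samples did not deviate together on average (mean correlation -0.0606 over 6 pairs of stages, from -0.394 to 0.175). The labels name no litter or batch, so whether any samples were paired is not known. With the replicate block, 6 rather than 7 genes fell from P28 to adult, since Clec4g at -0.30 was not called, and the other counts were 7 and 2 from E18 to P14, 10 from P14 to P28, and 2 and 8 from E18 to adult.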

Other observations

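The P14 samples differed in several vessel genes, which were picked after their values were seen. Lyve1 was lower in the second P14 sample than in the first by a log2 ratio of -0.679, and Apln by -0.487. Vwf was higher in the second sample by 0.722, Cd34, a marker of continuous endothelium, by 0.886, and Aplnr, the apelin receptor, by 1.37. Col1a1, a fibrillar collagen of mesenchymal cells, was higher by 0.902 and Mmrn1 by 1.19. Stab1, Stab2, Clec4g, Oit3, Pecam1, Kdr and Cdh5 differed between these samples by log2 ratios between -0.0947 and 0.0331.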
